A study of Mus musculus with 2 samples.

Results

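Transcripts of 10 natural killer (NK) cell receptor genes, *Klrd1*, *Klrc1*, *Klrc2*, *Klrk1*, *Klrb1c*, *Klre1*, *Klri2*, *Klrg1*, *Ncr1* and *Cd160*, were followed through the leukocytes of WT and twi mouse brains. The 10 genes were chosen by name from the 27998 genes of the count tables, of which 15438 had at least 1 unique molecular identifier (UMI, the tag that marks a single captured transcript). UMIs were summed, and cells with a UMI were counted, per library and per cell class. In all kept cells together, counts per 1000000 UMIs (CPM) of *Cd160* were 4.25 times as high in twi as in WT, and those of *Klrc1* and *Klrd1* were 2.08 and 2.0 times as high. Effector CD8 T cells were 1.18% of cells in WT and 25.2% in twi, and these sums do not tell more cells apart from more UMIs per cell. Within all NK cells at full depth, the levels of *Klrd1*, *Klrc1* and *Klrk1* differed between the libraries by less than their counting error. Beyond counting error at full depth, *Klrc2*, *Klre1* and *Klrg1* were lower in twi NK cells (0.639, 0.755 and 0.350 times). *Ncr1* and *Cd160* were higher there (1.33 and 2.62 times). The animals' sex differed between the pools. In NK cells with Y-linked transcripts and no *Xist*, *Ncr1* and *Cd160* were not higher in twi (0.936 and 0.730 times), with intervals that held 1. *Klrc2* and *Klre1* stayed lower in twi in those cells. *Klrd1* and *Klrb1c* were lower there too (0.587 and 0.563 times), beyond counting error. *Klrg1* also had a ratio below 1 there, but a UMI in only 16.7% of the 18 twi cells, and its interval is not given. Over all cells restricted in this way, *Cd160* was 2.49 times as high in twi. At an equal, lower depth per cell, with the classes set again, the interval of every member in NK cells held 1. Fewer UMIs at that depth also made the intervals wider, and the part of depth was not tested. The ratio of *Cd160* over all cells was lower at that depth as well.

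NK receptors fall into activating and inhibitory kinds, and the balance of their signals sets whether an NK cell kills the cell that it touches. Most belong to the C-type lectin-like families that are encoded together in the NK gene complex, and inhibitory members carry motifs that recruit phosphatases whereas activating members borrow adaptor proteins such as DAP10 (*Hcst*) and DAP12 (*Tyrobp*). Activated CD8+ T cells are also known to take up several of these receptors, so that a receptor's transcript in brain leukocytes does not by itself name the cell.

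The cells were brain leukocytes, sorted for CD45, of untreated C57Bl/6 mice (C57BL/6J in the study's methods) at p21, and each genotype gave 1 library pooled from 2 to 3 animals. WT mice were galc+/+ littermates, and twi mice were galc-/-, lack galactosylceramidase, which degrades galactosylceramide and psychosine, and serve as a model of globoid cell leukodystrophy. The transcripts were tagged by the 10x Genomics 3′ v2 assay, and the deposited values were raw counts of UMIs by gene and barcode. With 1 library per genotype no difference could be tested, all intervals below are exact 95% intervals that cover counting error only, and the genotype cannot be told apart from the library or from the animals in it.

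The WT library held 3749714 UMIs in 1278 barcodes (median 2216) and the twi library 4807539 UMIs in 1220 barcodes (median 3149.5), and 1271 WT and 1207 twi cells had at most 15% mitochondrial UMIs. No barcode occurred in both libraries. *Galc* had 4 UMIs in WT and 8 in twi, and because a 3′ tag cannot show the twi point mutation, the labels remain unchecked. *Xist* without any of 4 Y-linked transcripts was found in 45.4% of twi cells and in 0 of 1271 WT cells, so the animals' sex differed between the pools. UMIs of a neutrophil marker list of 12 genes, at 3.26 per WT and 1.42 per twi NK cell, were taken as a measure of free RNA, and B cells, which should lack the receptors, gave the background for each member.

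Classes were set from marker UMIs, none of which was a member. NK cells (no *Cd3*, at least 2 of 9 NK genes such as *Gzma*, *Prf1* and *Eomes*) numbered 65 in WT and 62 in twi, or 5.11% and 5.14% of cells. T cells with NK receptors, which carried *Cd3* and a Ly49 gene but no *Cd4* or *Cd8*, numbered 35 and 84. Effector CD8 T cells, with more effector than naive genes, numbered 15 and 304, and naive CD8 T cells 60 and 79. The WT effector class therefore rests on 15 cells. The NK gate was checked on 10 genes that no gate used. Of 5 NK genes, *Styk1* was found in 24.6% of WT and 38.7% of twi NK cells, *S1pr5* in 36.9% and 19.4%, *Xcl1* in 46.2% and 58.1%, *Ccl4* in 35.4% and 40.3% and *Irf8* in 64.6% and 61.3%. B cells had the first 4 in at most 2.71%, but *Irf8*, which B cells also express, in 54.7% and 58.2%. *Xcl1* and *Ccl4* did not set NK cells apart from every T cell class. *Xcl1* was found in 152 of 304 twi and 2 of 15 WT effector CD8 T cells. Of T cells with NK receptors, 54 of 84 in twi and 19 of 35 in WT had it. *Ccl4* was found in 87 of 304 twi and 7 of 15 WT effector cells. *Styk1* and *S1pr5* were rarer, in 8 and 6 of 304 twi and 0 and 2 of 15 WT effector cells. Of 5 T cell genes, *Lat* was found in 12 of 65 WT and 10 of 62 twi NK cells, *Cd28* in 11 and 9, *Bcl11b* in 1 and 7, *Cd5* in 2 and 0 and *Themis* in 0 and 0, and in B cells each was in at most 3.55%. The CD8 gate asked for *Cd8a* or *Cd8b1*, and the WT effector cells met it with *Cd8a* in 8 of 15 and *Cd8b1* in 14.

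Of the members, 8 lie on chromosome 6 of GRCm38, and *Klre1*, *Klrd1*, *Klrk1*, *Klrc2*, *Klrc1* and *Klri2* follow each other there between positions 129577905 and 129740484. *Klrb1c* lies at chr6:128778485-128789215 and *Klrg1* at chr6:122270596-122282882, whereas *Ncr1* lies at chr7:4337724-4345164 and *Cd160* at chr3:96798763-96829351. RefSeq (GRCm38.p6) gave promoter windows for 7 members, and 4 are printed to set members that were highest in NK cells (*Klrc1*, *Klrk1*, *Ncr1*) beside *Cd160*, which was not. Each is the 250 bases before an annotated start, at chr6:129678974-129679223 (minus strand), chr6:129623865-129624114 (minus), chr7:4337474-4337723 (plus) and chr3:96814522-96814771 (minus). The first 3 lie outside any annotated gene and the last lies in an intron of *Cd160*, before an internal start. Capitals mark the Runx letters TGTGGT, or ACCACA on the other strand, and the Ets letters AGGAAG.
Klrc1: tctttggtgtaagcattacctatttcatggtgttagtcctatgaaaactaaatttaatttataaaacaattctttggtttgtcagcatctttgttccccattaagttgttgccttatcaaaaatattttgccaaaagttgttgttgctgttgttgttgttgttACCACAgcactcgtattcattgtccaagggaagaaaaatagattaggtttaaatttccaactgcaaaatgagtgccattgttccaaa
Klrk1: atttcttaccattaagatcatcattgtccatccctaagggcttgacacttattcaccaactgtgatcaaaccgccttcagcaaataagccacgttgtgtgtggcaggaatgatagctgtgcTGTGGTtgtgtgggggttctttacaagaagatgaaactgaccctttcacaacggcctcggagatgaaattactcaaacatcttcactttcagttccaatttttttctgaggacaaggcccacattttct
Ncr1: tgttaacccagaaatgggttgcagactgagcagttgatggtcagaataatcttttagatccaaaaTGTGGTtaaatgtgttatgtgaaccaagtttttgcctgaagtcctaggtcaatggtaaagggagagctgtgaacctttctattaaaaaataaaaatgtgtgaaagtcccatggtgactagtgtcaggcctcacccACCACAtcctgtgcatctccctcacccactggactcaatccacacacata
Cd160: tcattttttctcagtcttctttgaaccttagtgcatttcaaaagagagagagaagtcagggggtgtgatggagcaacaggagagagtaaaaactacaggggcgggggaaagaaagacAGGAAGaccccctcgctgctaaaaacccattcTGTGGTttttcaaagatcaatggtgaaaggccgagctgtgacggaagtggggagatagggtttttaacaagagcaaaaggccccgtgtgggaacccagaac
The 7 members had 11 windows, and the windows of *Klrc2*, *Klre1* and *Ncr1* overlap in pairs, so that a match can be counted more than once. The Runx letters were found in 10 of the 11, among them at least 1 window of each gene, and in 14.0% of all 32851 promoter windows of this length. Ets letters (AGGAAG or CTTCCT) were found in 4 of the 11, of *Klrb1c*, *Klre1* and *Cd160*, against 29.5% of all windows, and the T-box letters AGGTGT (or ACACCT) in 0 of 11 against 11.8%. No match overlapped one of another motif in the printed windows. These are matches of letters and not binding sites.

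NK cells held the largest part of the members' UMIs in WT, and effector CD8 T cells in twi. Of all 3094 member UMIs in WT, 44.7% lay in NK cells, 16.1% in T cells with NK receptors and 2.1% in effector CD8 T cells. Of 6680 in twi, 23.8%, 18.9% and 28.1% lay in the same classes. Effector CD8 T cells were 1.18% of cells in WT and 25.2% in twi. Over all genes they held 37427 of 3741477 kept UMIs in WT and 1338961 of 4791200 in twi. The part of the members' UMIs in this class thus stands beside a like change in the class itself. The shift was widest for *Cd160*, with 5.26% of its UMIs in effector CD8 T cells in WT and 50.4% in twi, and for *Klrc1*, with 2.36% and 38.4%. *Ncr1* stayed with NK cells, which held 55.8% of its UMIs in WT and 58.2% in twi. Barcodes with markers of more than 1 lineage held a further 17.7% and 11.2%, and were set apart.

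**Figure D1:**
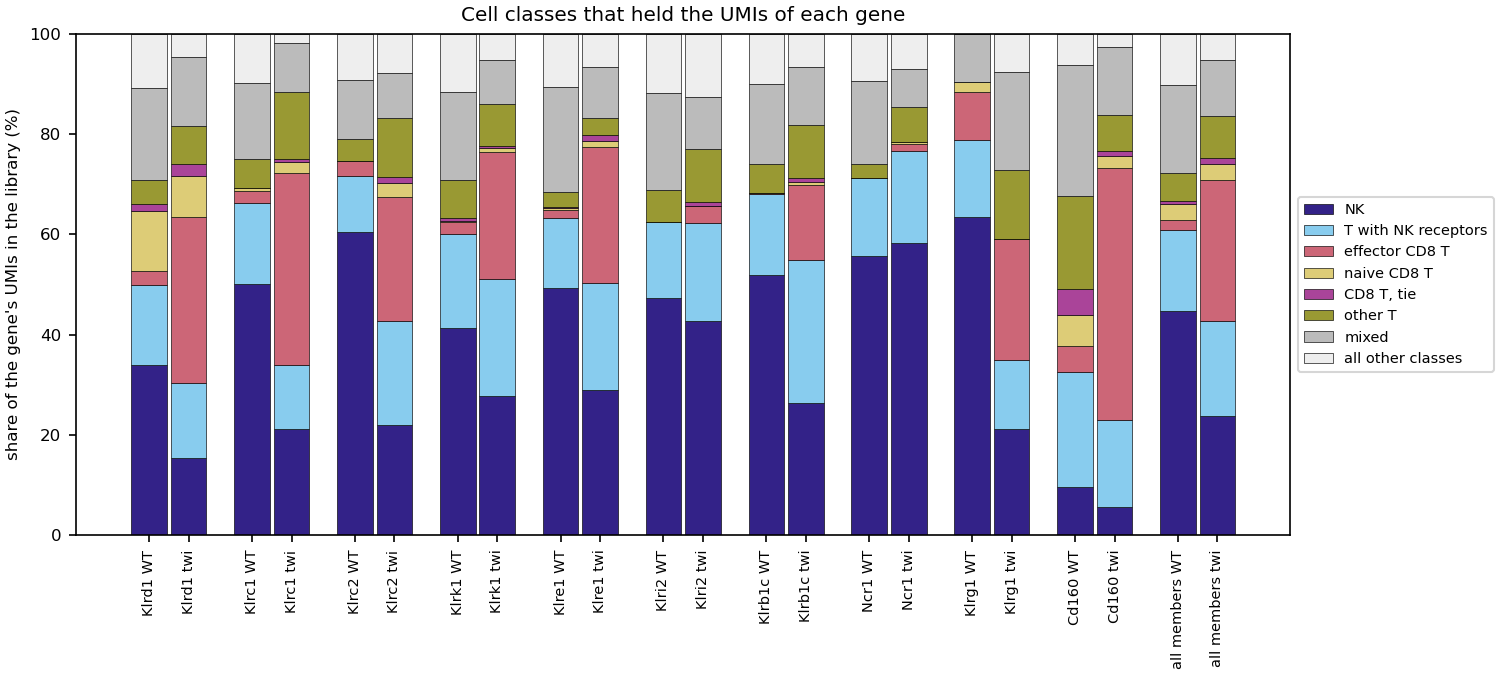
Share of each gene's UMIs (percent, vertical axis) by the cell class that held them, with 1 stacked bar per gene and library and a last pair for all members. For *Cd160* the effector CD8 T segment grows from 5.26% in WT to 50.4% in twi, and for *Ncr1* the NK segment is 55.8% and 58.2%.

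Over all cells, 3 of the 10 members (*Klrd1*, *Klrc1* and *Cd160*) were at least 2 times as high in twi, against 6.01% of the 11672 genes with at least 10 UMIs, and 0 were at most 0.5 times as high, against 9.57%. The members' median log2 ratio was 0.57 and that of all genes -0.04. A sum over all cells does not tell more cells of a class apart from more UMIs per cell, so the classes were taken one at a time. In NK cells 1 member (*Cd160*) was at least 2 times as high in twi and 1 (*Klrg1*) at most 0.5 times, near the background of 10.1% and 5.82% of genes, and the members' median was -0.08. T cells with NK receptors had 0 members at the upper limit and 1 (*Klrg1*) at the lower, against 12.6% and 7.2% of genes. Among effector CD8 T cells, where 8 members had enough UMIs, 1 (*Klrb1c*) lay above and 2 (*Klrc2*, *Klrg1*) below. The background was 40.6% and 15.7% of genes, and is wide because the WT side holds 15 cells. *Klrb1c*, *Klrc2* and *Klrg1* had 1, 5 and 5 UMIs in WT there and passed the minimum through twi, so these counts are no support. The naive CD8 T cells gave 3 of 5 members (*Klrc1*, *Klrc2* and *Klre1*) above and 0 below, against 8.91% and 4.82%, but these 3 had 4 UMIs in WT in all and passed the minimum through twi, so this count is no support.

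**Figure D2:**
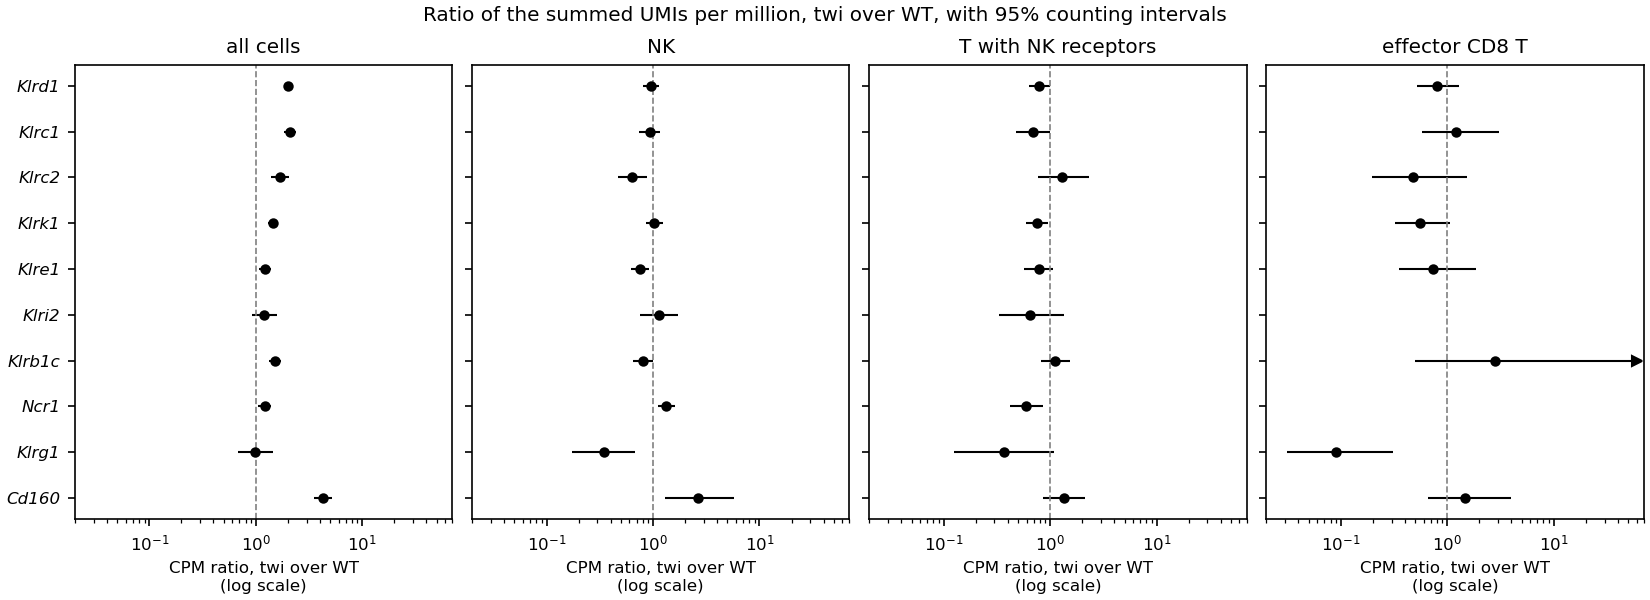
Ratio of CPM in twi over WT (horizontal log axis) for each member in 4 sets of cells, points with exact 95% counting intervals and a dashed line at 1. In all cells *Cd160* stands at 4.25, whereas in NK cells *Klrg1* lies at 0.350 and *Cd160* at 2.62. *Klri2* and *Ncr1* have no point in effector CD8 T cells, where WT had 0 UMIs, and the arrow marks an interval that leaves the axis.

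*Klrd1* encodes CD94, the invariant partner of the NKG2 chains. It had 711 UMIs in 220 WT cells and 1824 in 503 twi cells, a ratio of CPM of 2.0 (95% interval 1.84 to 2.19). Its level in NK cells was 1368 CPM in WT (241 UMIs) and 1319 CPM in twi (282 UMIs), a ratio of 0.964 (95% interval 0.809 to 1.15). In T cells with NK receptors it was 1101 and 866 CPM, a ratio of 0.786 (95% interval 0.629 to 0.987). NK cells were the highest class in each library, but in WT they did not differ from the T cells with NK receptors beyond counting error (1.24 times, 95% interval 0.989 to 1.57). *Klrd1* was the member that naive CD8 T cells shared, with a UMI in 41 of 60 cells in WT and 56 of 79 in twi, against 1.46% and 4.26% of B cells (median depth 3505 and 3891 UMIs in the naive cells, 1986 and 2202 in B cells). Naive cells held 396 and 470.3 CPM, a ratio of 1.19 (95% interval 0.906 to 1.57). The twi effector cells, with 449 CPM and a UMI in 60.9% of cells, stood at 0.954 times the naive level in the same library (95% interval 0.798 to 1.15). The WT effector cells held 561 CPM (21 UMIs), a ratio of twi over WT of 0.80 (95% interval 0.519 to 1.3). CD4 T cells held 89.4 and 65.1 CPM.

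*Klrc1* and *Klrc2* encode NKG2A and NKG2C, which pair with CD94 and bind the nonclassical MHC molecule Qa-1, the first inhibiting and the second activating the cell. The last 500 bases of the *Klrc1* transcript share 56.3% of their 50-base words with *Klrc2* transcripts, so the split between both genes is uncertain. *Klrc1* went from 296 UMIs in WT to 790 in twi, 2.08 times the CPM (95% interval 1.82 to 2.39). *Klrc2* had 162 and 347 UMIs, 1.67 times the CPM (95% interval 1.38 to 2.03). Both were thus higher in the twi sum. In NK cells *Klrc1* differed by less than counting error, at 839.9 CPM in WT and 781 in twi (0.930, 95% interval 0.741 to 1.17), whereas *Klrc2* was at 556 and 355 CPM (0.639, 95% interval 0.467 to 0.871). *Klrc2* was found in 64.6% of WT and 56.5% of twi NK cells. Per *Klrc2* UMI there were 1.51 *Klrc1* UMIs in WT NK cells (95% interval 1.16 to 1.97) and 2.20 in twi (95% interval 1.67 to 2.92). These intervals overlap, which does not show that the libraries differed by less than counting error.

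Outside NK cells the pair differed. Of the 304 twi effector CD8 T cells, 103 (33.9%) had a *Klrc1* UMI and 63 (20.7%) a *Klrc2* UMI, against at most 2.13% of B cells in either library for either gene. The level of *Klrc1* there was 226 CPM (303 UMIs, 95% interval 202 to 253) and that of *Klrc2* 64.2 CPM (86 UMIs, 95% interval 51.4 to 79.3), so that 3.52 *Klrc1* UMIs stood beside each *Klrc2* UMI (95% interval 2.76 to 4.53). This ratio lay above that of T cells with NK receptors in the same library, 1.40 (95% interval 1.03 to 1.93). Its interval overlapped that of NK cells, which does not show that these classes differed by less than counting error. WT effector cells had 7 *Klrc1* and 5 *Klrc2* UMIs, of which 5 of *Klrc1* came from 1 cell, so the ratios of twi over WT, 1.21 and 0.481, had wide intervals (0.58 to 3.04 and 0.198 to 1.52). Naive CD8 T cells were at 2 *Klrc1* UMIs in 1 WT cell and 17 in 7 twi cells, and at 0 and 10 *Klrc2* UMIs. All 5 twi naive cells with *Klrc2* also had *Klrc1* and *Klrd1*. In T cells with NK receptors, *Klrc1* was lower in twi (468 and 320.2 CPM, 0.684, 95% interval 0.481 to 0.986), and *Klrc2* was at 175 and 228 CPM (1.30, 95% interval 0.768 to 2.32). In those of them with at least 2 *Cd3* UMIs, *Klrc2* was at 61.2 and 204 CPM (5 and 58 UMIs, 3.33, 95% interval 1.35 to 10.6), and in those with Y-linked transcripts and no *Xist* the ratio was 4.11 on 10 UMIs (95% interval 0.82 to 39.7).

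**Figure D3:**
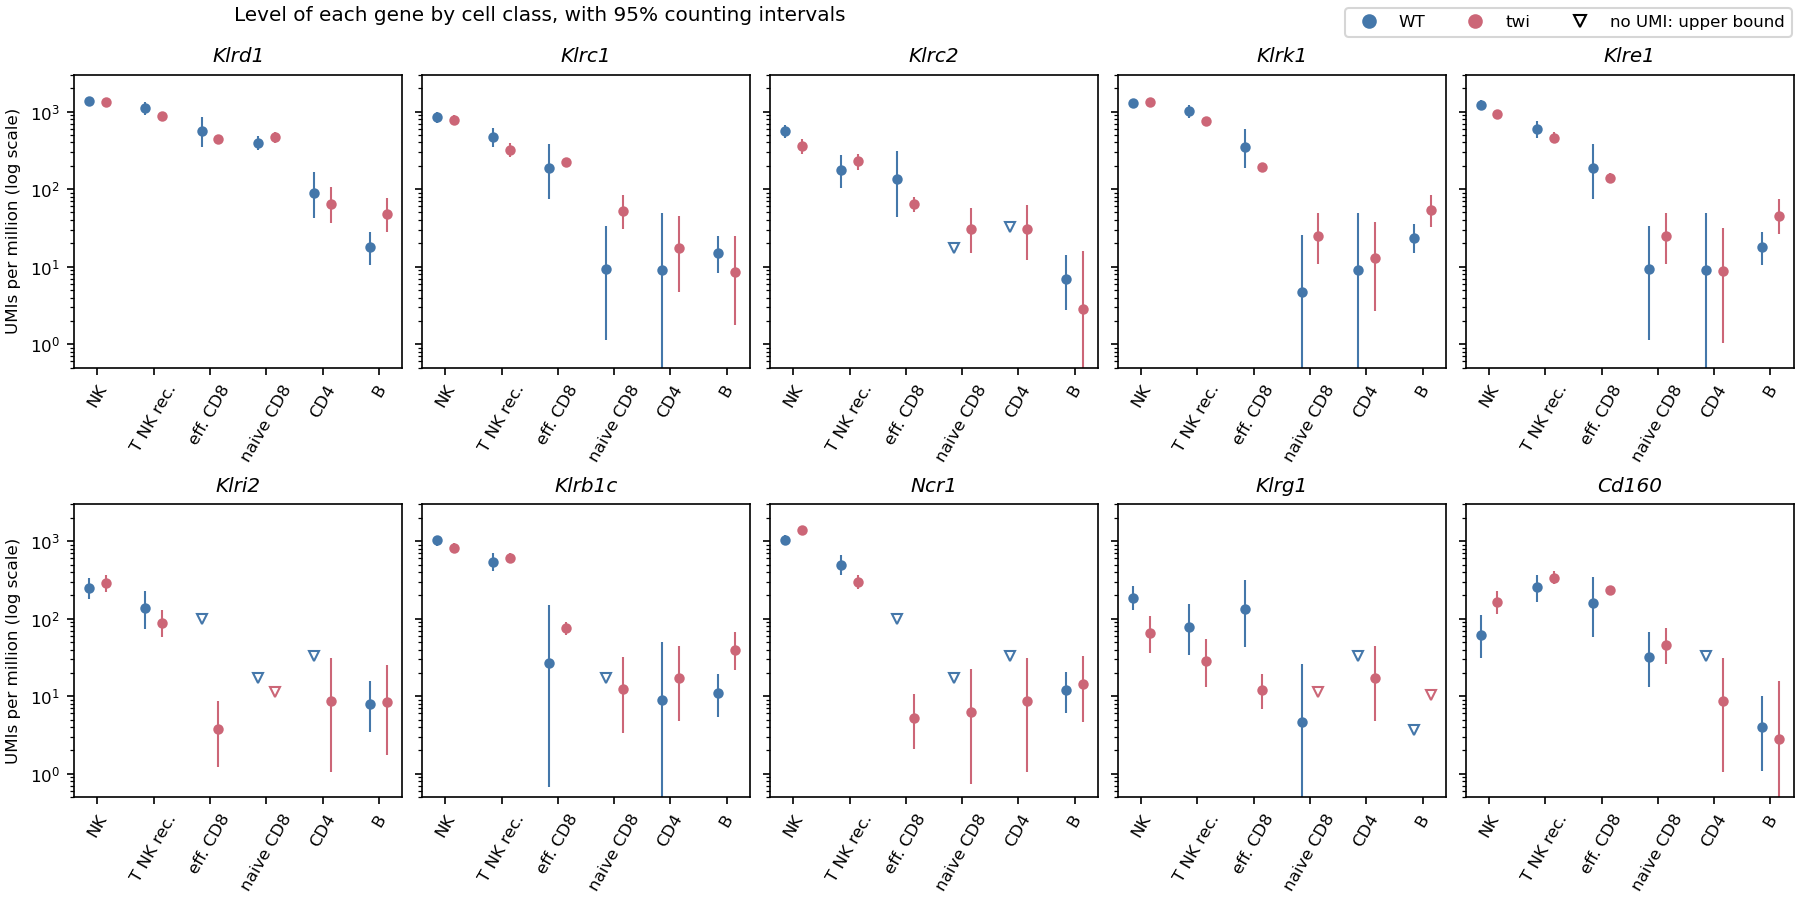
Level of each member in CPM (vertical log axis) by cell class for WT (blue) and twi (red), with exact 95% counting intervals. Where a class had no UMI, an open triangle stands at the upper end of the exact 95% interval. *Ncr1* and *Klri2* drop from NK cells to effector CD8 T cells 266-fold and 76.4-fold in twi, whereas *Klrd1* lies at 449 and 470.3 CPM in twi effector and naive cells.

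*Klrk1* encodes NKG2D, an activating receptor for stress-induced ligands that signals through DAP10. It was found in 90.8% of WT and 91.9% of twi NK cells, at 1294 and 1333 CPM, a ratio of 1.03 (95% interval 0.862 to 1.23). T cells with NK receptors followed at 1014 and 761 CPM, and effector CD8 T cells at 347 and 193 CPM. In the twi library each step was larger than counting error, with NK cells 1.75 times above the T cells with NK receptors (95% interval 1.47 to 2.09) and 6.89 times above effector cells (95% interval 5.8 to 8.18). Effector cells in turn held 7.81 times the naive level (95% interval 3.91 to 18.3). Within effector cells the ratio of twi over WT was 0.557 (95% interval 0.32 to 1.06, 13 and 259 UMIs), while over all cells it was 1.45 (95% interval 1.31 to 1.61). *Hcst*, the gene of DAP10, was present in 81.6% of twi effector cells and 82.3% of twi NK cells, and of the 109 twi effector cells with *Klrk1*, 96 also had *Hcst*. B cells had *Hcst* in 4.38% in WT and 2.13% in twi.

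*Klre1* and *Klri2* encode lectin-like receptors, and the product of *Klre1* pairs with the KLRI proteins on the cell surface. *Klre1* was lower in twi NK cells, at 1220.1 CPM in WT and 921 in twi (0.755, 95% interval 0.619 to 0.92), with a UMI in 83.1% and 80.6% of NK cells. *Klri2* was found in 24 of 65 WT and 29 of 62 twi NK cells, at 249.7 and 285 CPM (1.14, 95% interval 0.763 to 1.72). Of the NK cells with *Klri2*, 23 of 24 in WT and 28 of 29 in twi also had *Klre1*, which most NK cells had. Both genes were seen in 35.4% of WT NK cells (95% interval 23.9 to 48.2%), against a product of their shares of 30.7%. In twi NK cells the values were 45.2% (95% interval 32.5 to 58.3%) and 37.7%, so the product lay within the interval in each library. The 2 genes parted in effector CD8 T cells. *Klre1* was found in 65 of 304 twi cells, at 138 CPM, and *Klri2* in 2 of them, at 3.73 CPM and a share of 0.658%, no higher than the 0.709% of twi B cells. NK cells stood above effector cells 6.67-fold for *Klre1* (95% interval 5.43 to 8.19) and 76.4-fold for *Klri2* (95% interval 31 to 244) in twi. In WT, where *Klri2* had 0 UMIs in effector cells, the bound from 3 counts over the class was at least 3.12-fold. All 7 *Klre1* UMIs of the WT effector class came from 1 cell. Over all cells the ratios of twi over WT were 1.22 for *Klre1* (95% interval 1.08 to 1.38) and 1.20 for *Klri2* (95% interval 0.918 to 1.58).

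*Klrb1c* encodes NK1.1 and *Ncr1* encodes NKp46, both activating and both used to define mouse NK cells. *Klrb1c* was found in 83.1% of WT and 90.3% of twi NK cells and *Ncr1* in 92.3% and 90.3%, and 52 of 65 and 53 of 62 cells had both. The level of *Ncr1* in NK cells was higher in twi, 1389 against 1044 CPM (297 and 184 UMIs, 1.33, 95% interval 1.1 to 1.61), at 5.30 and 3.07 UMIs per positive cell. In T cells with NK receptors it was lower in twi, 298 against 497 CPM (0.600, 95% interval 0.422 to 0.86). *Klrb1c* differed in neither class beyond counting error, with 1022 and 828 CPM in NK cells (0.810, 95% interval 0.655 to 1.003) and 546 and 606 CPM in T cells with NK receptors (1.11, 95% interval 0.82 to 1.52).

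The pair parted in effector CD8 T cells. *Ncr1* had 7 UMIs in 7 of 304 twi cells, a share of 2.30% against 2.13% in twi B cells, and 0 UMIs in the 15 of WT, where a count of 0 still permits a share of 20.0% (3 counts of the total; the exact interval ends at 21.8%). Its twi NK level was 266 times that of the effector cells (95% interval 127 to 667). *Klrb1c* had 101 UMIs in 52 twi cells, 17.1% against 4.26% of B cells, and 1 UMI in WT, a ratio of CPM of 2.82 (95% interval 0.495 to 113). Median depth was 3875 UMIs in twi effector cells and 2202 in twi B cells. In CPM the twi effector level of *Klrb1c* was 75.4 against 39.8 in B cells, 1.89 times as high (95% interval 1.08 to 3.59). NK cells were 10.97 times as high as effector cells for *Klrb1c* in twi (95% interval 8.55 to 14.2). Over all cells *Klrb1c* was 1.51 times as high in twi (95% interval 1.32 to 1.72) and *Ncr1* 1.21 times (95% interval 1.05 to 1.39).

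*Klrg1*, an inhibitory receptor for cadherins that marks terminally differentiated NK and T cells, was the rarest member and the one that was lowest in twi relative to WT in NK cells. It had 52 UMIs in 32 WT cells and 66 in 37 twi cells, a ratio of CPM of 0.991 (95% interval 0.679 to 1.45) that was 2.37 in cells with Y-linked transcripts and no *Xist* (95% interval 1.24 to 4.54). Among NK cells it was found in 20 of 65 in WT and 8 of 62 in twi, at 187 and 65.5 CPM (33 and 14 UMIs, 0.350, 95% interval 0.173 to 0.671). At an equal depth of 1000 UMIs per cell, with the classes set again, the ratio was 0.724 (95% interval 0.279 to 1.76). T cells with NK receptors had 8 *Klrg1* UMIs in WT and 9 in twi (0.366, 95% interval 0.125 to 1.09). The twi effector cells had a UMI in 10 of 304, at 11.9 CPM, and the WT effector cells 5 UMIs in 2 of 15, at 134 CPM, a ratio of 0.0894 (95% interval 0.0313 to 0.312) that was 0.311 without the barcode of each library with the most *Klrg1* UMIs. B cells had none, and a count of 0 in 479 WT cells permits a share of 0.626%.

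*Cd160*, whose product binds the herpesvirus entry mediator HVEM, differed from the other members in where it lay. It was not highest in NK cells. In twi, T cells with NK receptors held 339 CPM (107 UMIs), effector CD8 T cells 234 CPM (313 UMIs) and NK cells 164 CPM (35 UMIs), and each step exceeded counting error, with NK cells at 0.700 times the effector level (95% interval 0.479 to 0.995). In WT the values were 253, 160.3 and 62.4 CPM, and NK cells stood at 0.246 times the T cells with NK receptors (95% interval 0.11 to 0.516). The share of effector cells with a UMI was 47.0% in twi (143 of 304, 95% interval 41.3 to 52.8%) and 26.7% in WT (4 of 15, 95% interval 7.79 to 55.1%), with B cells at 0.709% and 0.626%. The level in effector cells differed by less than counting error (1.46, 95% interval 0.662 to 4). This ratio was 3.71 at 1000 UMIs per cell (45 UMIs, 95% interval 0.632 to 150), 0.784 in cells with Y-linked transcripts and no *Xist* (24 UMIs, 95% interval 0.263 to 3.16) and 1.95 with T cells kept that had markers of another lineage (95% interval 1.05 to 4.09).

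NK cells with *Cd160* were 9 of 65 in WT and 22 of 62 in twi, at 62.4 and 164 CPM (11 and 35 UMIs, 2.62, 95% interval 1.3 to 5.72). Restricted to the 27 WT and 18 twi NK cells with Y-linked transcripts and no *Xist*, the ratio was 0.730 on 14 UMIs (95% interval 0.209 to 2.4). Over all cells *Cd160* had 114 UMIs in 74 WT cells and 621 in 293 twi cells, a ratio of 4.25 (95% interval 3.48 to 5.24), and 313 of the twi UMIs were those of the effector class. At 1000 UMIs per cell this ratio was 2.62 and in cells with Y-linked transcripts and no *Xist* 2.49. Naive CD8 T cells held 32.6 and 46.4 CPM.

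**Figure D4:**
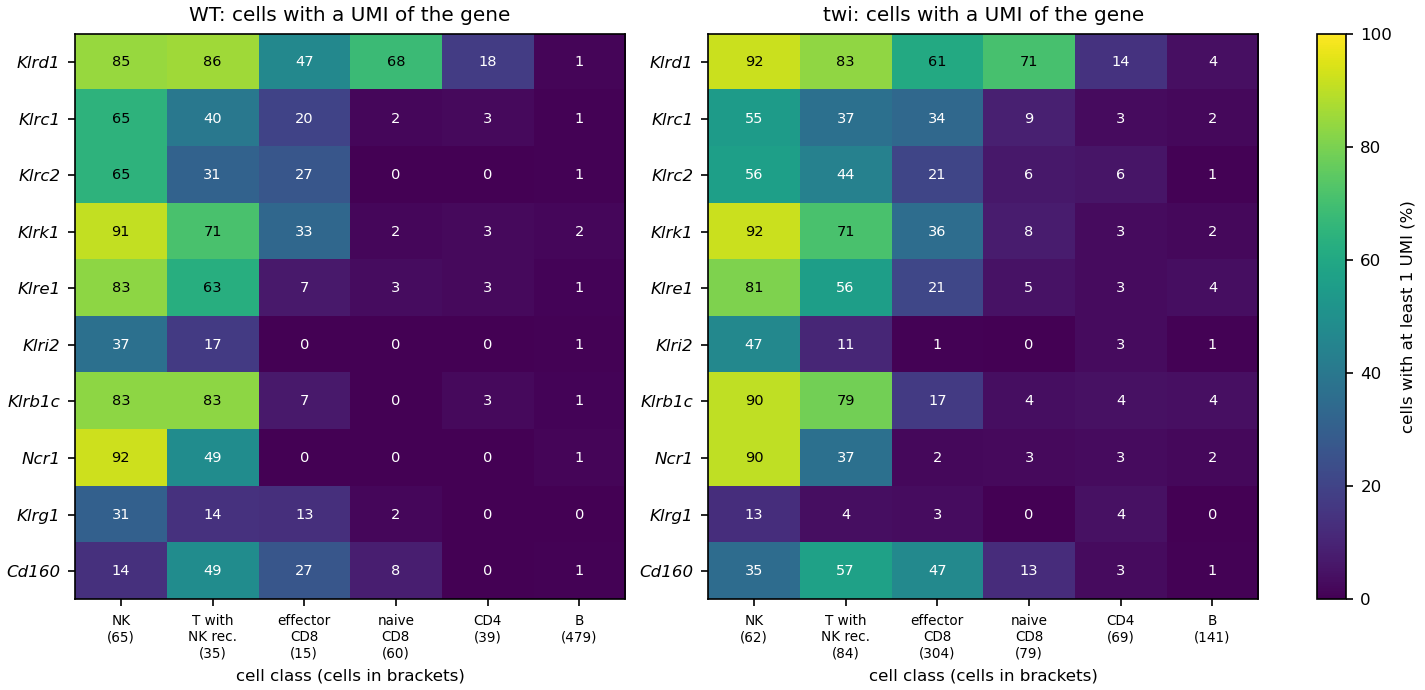
Share of cells with at least 1 UMI of each member (percent, colour and number) by cell class, WT on the left and twi on the right, with the number of cells in brackets. *Klrd1* spans NK, T and CD8 T classes including 68.3% and 70.9% of naive cells, *Cd160* reaches 47.0% of twi effector cells, and B cells lie between 0 and 4.26%.

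Depth and sex stood beside the NK values. At 1000 UMIs per cell, with the classes set again, every member's interval in NK cells held 1, among them *Klrc2* (0.779, 95% interval 0.479 to 1.25), *Klre1* (0.972, 95% interval 0.708 to 1.33), *Ncr1* (1.34, 95% interval 0.997 to 1.81) and *Cd160* (2.11, 95% interval 0.826 to 5.81). The NK class set at this depth held 82 WT and 68 twi cells, in place of 65 and 62. Thinning leaves fewer UMIs and so wider intervals, and the part of depth was not tested. In NK cells with Y-linked transcripts and no *Xist*, *Klrd1* was at 0.587 (95% interval 0.424 to 0.809), *Klrc2* at 0.231 (95% interval 0.119 to 0.419), *Klrb1c* at 0.563 (95% interval 0.379 to 0.827), *Klre1* at 0.584 (95% interval 0.409 to 0.827) and *Ncr1* at 0.936 (95% interval 0.674 to 1.3). The sex of the animals cannot be told apart from the genotype in the other cells.

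NK cells carried most of the members at once. The median NK cell had a UMI of 7 of the 10 in each library, the median T cell with NK receptors 5, the median effector CD8 T cell 2 and the median naive cell 1. At least 3 members were seen in 95.4% of WT and 95.2% of twi NK cells, in 26.7% (4 of 15) and 44.4% (135 of 304) of effector cells, and in 0 of 60 and 6 of 79 naive cells. The effector difference did not hold at 1000 UMIs per cell, where the shares were 15.4% and 11.7% (median depth 2019 UMIs in WT and 3875 in twi). Of the B cells, 94.8% in WT and 84.4% in twi lacked all 10.

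**Figure D5:**
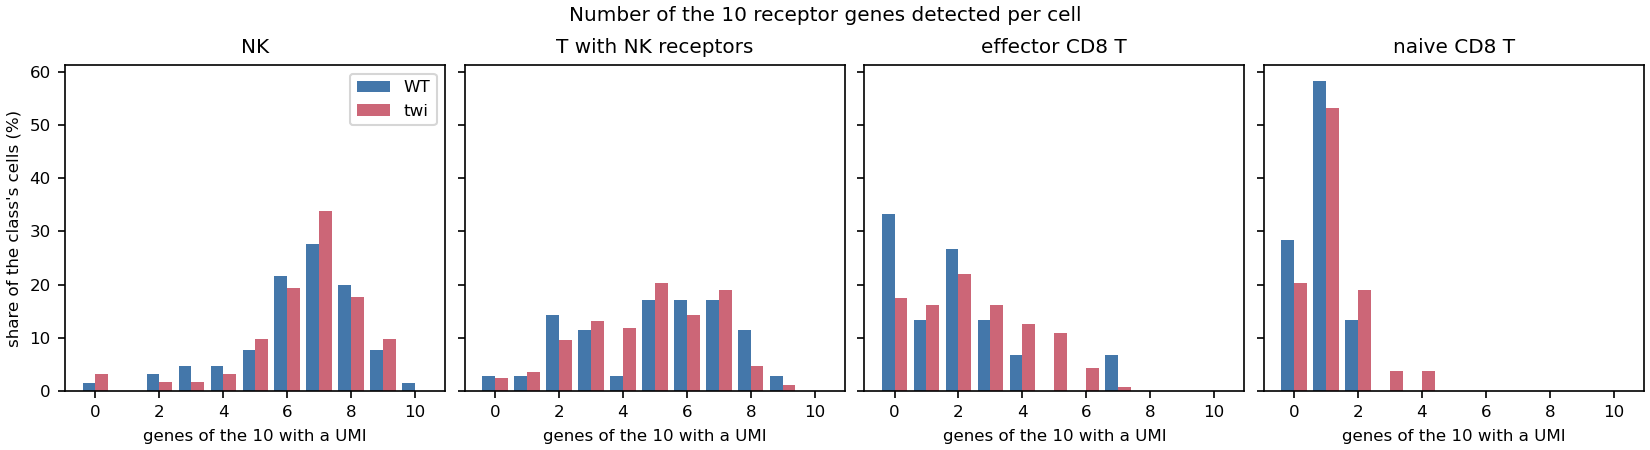
Share of the cells of a class (percent, vertical axis) by the number of the 10 members with at least 1 UMI (horizontal axis), WT in blue and twi in red. NK cells centre on 7 genes in both libraries, and 44.4% of twi effector CD8 T cells have 3 or more.

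Of 10 pairs of genes counted in the twi effector CD8 T cells, 4 were seen together more often than the product of their shares, with the product outside the interval. Other pairs of genes were not counted, so the number has no background and is not read as a result about the members. *Klrd1* and *Klrc1* were seen together in 79 of 304 cells, 26.0% (95% interval 21.1 to 31.3%) against a product of 20.6%, and 76.7% of the cells with *Klrc1* had *Klrd1*. *Cd160* and *Klrd1* were seen together in 107 cells, 35.2% (95% interval 29.8 to 40.9%) against 28.6%. *Klre1* and *Klrd1* were found together in 52 cells, 17.1% (95% interval 13.05 to 21.8%) against 13.01%. *Klrc1* and *Klrc2* were seen together in 38 cells, 12.5% (95% interval 9 to 16.8%) against 7.02%, with the uncertainty of their split. *Cd160* with *Klrc1* (57 cells, 18.8% against 15.9%) and *Klrk1* with *Hcst* (96 cells, 31.6% against 29.3%) were closer to their products, within the interval. In NK cells the same 4 pairs had the product within the interval in both libraries. Depth per cell moves both genes of a pair, and its part was not tested.

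T cells with NK receptors were not a uniform class. The cells with a single *Cd3* UMI, 8 in WT and 9 in twi, had these genes at shares near those of NK cells. *Ncr1* was found in 7 and 9 of them, *Klrk1* in 8 and 9, *Tyrobp* in 8 and 8, and the T cell gene *Bcl11b* in 0 and 0. Cells with at least 2 *Cd3* UMIs, 27 and 75, had *Ncr1* in 10 and 22, *Tyrobp* in 9 and 28, *Bcl11b* in 8 and 21 and *Cd160* in 14 and 46. In the latter cells alone *Klrk1* stood at 674 and 678 CPM, a ratio of 1.01 (95% interval 0.742 to 1.38), against 0.751 (95% interval 0.594 to 0.954) in the whole class, and *Ncr1* stood at 392 and 214 CPM.

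Likeness of pattern was described by Pearson's r of log2(CPM + 10) over 13 points, the classes of both libraries with at least 10 cells, which share their libraries and so are not independent. The members closest to each other were *Klri2* and *Ncr1* (r = 0.996) and *Klrk1* and *Klre1* (r = 0.988), and the least alike were *Klri2* and *Cd160* (r = 0.463). Among other genes, *Samd3* was nearest to *Klrc1* (0.962), *Serpinb6b* to *Klrc2* (0.965), *Styk1* to *Klri2* (0.979), *S1pr5* to *Klrg1* (0.961), *Khdc1a* to *Ncr1* (0.979) and *Plekha5* to *Cd160* (0.887). The genes nearest to *Klrd1* (*Nkg7*, 0.968), *Klrk1* and *Klre1* (*Gzma*, 0.981 and 0.983) and *Klrb1c* (*Klra9*, 0.975) had set the classes.

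The genes around the members were taken from a list of adaptors, ligands and other receptors, whose counts over all cells stand beside 6.01% of all genes at least 2 times as high in twi and 9.57% at most 0.5 times. Of the ligands, *H2-T23*, which encodes the Qa-1 that NKG2A and NKG2C bind, was 1.46 times as high over all twi cells (545 and 1017 UMIs, 95% interval 1.31 to 1.62). It was found in 56.2% of twi effector CD8 T cells and 3 of 15 in WT, at median depths of 3875 and 2019 UMIs. The twi share was also higher in naive CD8 T cells (49.4% against 31.7%) and CD4 T cells (52.2% against 33.3%), but not in T cells with NK receptors (44.0% against 48.6%). The part of depth was not tested. *Cdh1*, the gene of E-cadherin, which KLRG1 binds, had 3 UMIs in WT and 98 in twi (25.5, 95% interval 8.48 to 126), and 65 of the 98 lay in 52 of the 304 effector cells, with 0 in 479 WT and 141 twi B cells. Of the 3 ligand genes with at least 10 UMIs, 1 was at least 2 times as high in twi. This was *Cdh1*, which passed the minimum through twi, so the count is no support. Among 19 adaptor genes, 2 were (*Zap70* 2.59 and *Lck* 2.27, both T cell kinases) and 1 was at most 0.5 times as high (*Syk*, 0.294). Of 25 other receptors 10 were at least 2 times as high, among them *Cd226* (3.53), *Cd96* (2.48) and *Cd244* (2.48), and 0 at most 0.5 times. The 10 include *Klra5*, which passed the minimum through twi, so this count is no support either. Sums over all cells also do not tell more cells of a class apart from more UMIs per cell. *Tyrobp*, which carries the signal of many activating NK receptors, was found in 44 of 304 twi effector cells, 14.5%, no more than in B cells (17.5% and 19.9%).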

How the data were processed

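CD45+ brain cells of WT and twi mice were measured in 1 pooled library per genotype. The values the authors deposited are counts of UMIs by gene and barcode, not normalized. According to the submitters' processing notes, Cell Ranger 2.1.1 and the build mm10 were used, and the study's methods name STAR, a filter on mapping quality and an adaptive UMI threshold for cells. Barcodes with over 15% mitochondrial UMIs were removed.

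Cell classes were set by marker UMIs (T, at least 1 UMI of 3 *Cd3* genes; B, at least 2 of 6 genes; neutrophil and myeloid, at least 3 of 10 genes each; NK, at least 2 of 9 genes with *Tyrobp* or *Fcer1g*; CD8 T cells, naive or effector by the larger number of 6 genes each). T cell receptor genes were not used here, and results for gamma-delta T cells are not reported here. Sums per class were turned into CPM, with intervals from the exact Poisson method. Shares have Clopper-Pearson intervals and ratios exact conditional intervals (Python 3.11.15, numpy 2.4.6, scipy 1.17.1). List medians used genes with at least 10 UMIs and a pseudocount of 0.5 UMIs, and a fold of 2 or 0.5 stood for a call. A bound against 0 UMIs used 3 counts over the class. Thinned values used 1000 UMIs per cell, which left out 106 WT and 20 twi cells. Scrublet (scanpy 1.11.5) called 5 cells in each library (0.393% and 0.414%). Whether it found most doublets was not tested, so doublets may remain.

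The 10 members, the 62 partner genes (57 in the count tables), the lists and the gates were chosen with earlier results of these data known. All members and partners were candidates to be named, and the 3 non-member genes with the highest r were taken for each member. Poisson counts were simulated with 200 changed genes. The interval of the ratio held their true fold for 97% in all cells (11672 genes), 96.5% in NK cells (4727 genes) and 99.5% in effector CD8 T cells (7794 genes). Such counts follow the model that the intervals assume. The simulation therefore checks the calculation only, and cannot show how the intervals fare where UMIs cluster in a few cells. An annotated gene that overlaps *Klrb1c* on the same strand had 0 UMIs in both libraries, and *Pdzk1*, which overlaps *Cd160* on the other strand, had 1 in WT and 2 in twi. Positions are those of GENCODE vM21 (GRCm38).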

Additional observations from a re-analysis of the deposited data

Results flagged for a closer look

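For some members the ratio of twi over WT lay on opposite sides of 1 in different lymphocyte classes, with intervals that did not hold 1. The share of all genes that do so was not counted, so their number is not read as a result. *Klrk1* and *Klre1* entered only through B cells, and *Klrc2* only through a bound in naive CD8 T cells. *Ncr1* was 1.33 times as high in NK cells of twi and 0.600 times as high in T cells with NK receptors. In the latter class *Klrd1* was at 0.786 and *Klrc1* at 0.684, whereas in the T cells that met no other class, 88 in WT and 167 in twi, they were at 1.54 (95% interval 1.05 to 2.31) and 2.36 (95% interval 1.41 to 4.2). In naive CD8 T cells *Klrc1* was at 5.65 on 2 and 17 UMIs, and *Klrc2*, at 0.639 in NK cells, was at least 2.22 times as high on 0 and 10 UMIs by the bound from 3 counts, values that rest on the UMIs of twi and support no difference. In B cells, which served as background, *Klrd1* was at 2.71 (18 and 17 UMIs), *Klrk1* at 2.27 (24 and 19 UMIs) and *Klre1* at 2.55 (18 and 16 UMIs), against 0.751 for *Klrk1* in T cells with NK receptors and 0.755 for *Klre1* in NK cells. Of the 17 *Klrd1* UMIs in twi B cells, 12 lay in 1 barcode. By members detected, 119 twi B barcodes had 0, 21 had 1 and 1 had 8. In WT 454 had 0, 22 had 1, 1 had 6 and 2 had 8. The B cell ratios thus lean on few barcodes, which may be doublets. No difference between classes was tested, since each rests on 1 library per genotype. Barcodes above the mitochondrial limit, which enter no comparison, held 5 UMIs of the members in 7 WT barcodes and 50 in 13 twi barcodes, of which 4 and 19 were of *Klrd1*.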

How the results depend on the processing

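No paired analysis was possible because each genotype has a single library. Of 468 ratios of single members under the alternatives, 429 stayed within the interval of the value reported, 35 moved outside it, and 4 changed sides of 1 where that interval had not held 1. Counting also the ratios whose interval had held 1, 31 changed sides, 14 of them in cells with Y-linked transcripts and no *Xist* and 6 at 1000 UMIs per cell. Of 360 shares of cells, 319 stayed within and 41 moved, 27 of them at 1000 UMIs per cell. The restriction to cells with Y-linked transcripts and no *Xist* moved all 3 medians of the members' log2 ratios, to -0.59 in NK cells, 0.85 in all cells and -1.45 in effector CD8 T cells (5 members), and reversed *Cd160* (0.730) and *Ncr1* (0.936) in NK cells. The cause was not tested. *Klrk1* in T cells with NK receptors reversed to 1.01 with at least 2 *Cd3* UMIs and to 1.02 with NK cells allowed 1 *Cd3* UMI, settings that move cells with a single *Cd3* UMI out of the class. Chosen after seeing the data were 2 alternatives, NK cells with markers of 1 other lineage kept, which moved the NK median to 0.08, and leaving out the barcode with the most UMIs of a member, which moved *Klrc1* in effector CD8 T cells from 1.21 to 3.74. The effector median of -0.44 was 0.56 at 1000 UMIs per cell and 0.33 with the CD8 split by summed UMIs. The 15 WT effector cells limit every ratio of that class.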

Other observations

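Among the Ly49 receptors of the partner list, *Klra5* had 3 UMIs in WT and 49 in twi over all cells (12.8, 95% interval 4.12 to 64), and *Klra6*, an inhibitory receptor that is also found on memory CD8 T cells, had 37 and 112 (2.36, 95% interval 1.62 to 3.53). *Klra5* reached the minimum of 10 UMIs through twi. In NK cells *Klra1* was at 22 and 4 UMIs (0.150, 95% interval 0.0375 to 0.441), and *Klra4* (0.669), *Klra8* (0.687) and *Klra3* (0.621) were also lower in twi, with intervals that did not hold 1, whereas *Klra7* (0.969) and *Klra9* (0.943) differed by less than counting error. *Klra4*, *Klra8* and *Klra9* were used in the NK gate. *Fcgr3*, the gene of the Fc receptor CD16, was at 23 and 10 UMIs in NK cells (0.358, 95% interval 0.152 to 0.783). The neutrophil marker list, taken as a measure of free RNA, was also lower in twi NK cells, at 1203 CPM in WT and 412 in twi. The part of free RNA in the *Fcgr3* ratio was not tested. *Slamf7* was at 30 and 15 UMIs in NK cells (0.412, 95% interval 0.206 to 0.79), while *Cd244* was at 19 and 51 (2.21, 95% interval 1.28 to 3.97). The NK ratios of the partner genes are those at full depth in all NK cells, and the parts of depth and sex were not tested. The phosphatase gene *Ptpn6*, which encodes SHP-1 and serves inhibitory receptors, was at 25 and 65 UMIs (2.14, 95% interval 1.33 to 3.55), and *Lcp2*, an adaptor of activating signals, at 8 and 29 (2.99, 95% interval 1.33 to 7.56). Of the 15 receptors of the list with at least 10 UMIs in NK cells, 2 were at least 2 times as high in twi and 3 at most 0.5 times, against 10.1% and 5.82% of all genes, with a median log2 ratio of -0.54, beside 0.08 for all genes.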
